A study of Homo sapiens with 24 samples.

Results

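The genes described here are 8 protein arginine methyltransferases (PRMT1, PRMT2, PRMT3, CARM1, PRMT5, PRMT6, PRMT7 and PRMT9) and a pair of PRMT5 cofactors (WDR77 and CLNS1A). They were taken by name from the gene table, 10 of 38048 genes, and their 131 isoforms were taken from a transcript table of 178398. The study treated MV4-11, an established human acute myeloid leukaemia line that carries an MLL fusion and is labelled PRMT5 +/+, and sequenced poly(A)-selected RNA from 24 libraries in 8 groups of 3 (replicates A, B and C). That label is the same for all 8 groups. The control received DMSO. PRT220 (an inhibitor of PRMT5, 3 nM), GSK-LSD1 (an inhibitor of the histone demethylase LSD1, 10 nM) and PRT220+GSK-LSD1 were given for 3 days, per the series' design text, and the labels abbreviate GSK-LSD1 to LSD1. The other groups were MS023 (an inhibitor of the type I arginine methyltransferases), MS023+GSK-LSD1, MC4455 and MC4491. For these 4 groups the labels give neither dose nor time, and MC4455 and MC4491 are code names. Nothing in the labels says that replicates are independent cultures. Every p-value therefore reflects the spread among these samples alone, and that spread may be technical.

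Arginine methyltransferases move methyl groups from S-adenosylmethionine to the guanidino nitrogens of arginine. Type I enzymes (PRMT1, PRMT2, PRMT3, CARM1, PRMT6) make asymmetric dimethylarginine, type II enzymes (PRMT5, PRMT9) make symmetric dimethylarginine, and the type III enzyme PRMT7 makes monomethylarginine only. PRMT5 works in a complex with WDR77 (also called MEP50), and CLNS1A (also called pICln) brings it the Sm proteins of the spliceosome. Arginine methylation is known for its part in splicing, transcription and ribosome biogenesis, and PRMT5 and the type I enzymes have been studied as drug targets in leukaemia. An inhibitor blocks the enzyme, not its gene, so the mRNA of the target is not a measure of inhibition.

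Library totals ran from 32495446 to 61090593 estimated counts. A split of unknown source crossed the groups: 8 libraries had RRP9 at 0.677 to 1.73 CPM and the mitochondrial MT-CYB at 11.4 to 24.7 CPM, against 29.1 to 36.2 and 177 to 359 CPM in the other 16 (CPM, a count scaled to its library total, here without TMM factors). These low-RRP9 libraries were all 3 of PRT220, MS023 A and C, DMSO C, PRT220+GSK-LSD1 C and MS023+GSK-LSD1 B. The labels do not name the split, and its cause was not tested. In a fit with a term for it none of the 10 genes differed between the library kinds (edgeR's adjusted p from 0.148 to 0.851), against 163 genes higher and 533 lower of all 16640 tested. The largest of these estimates was 0.14 on the log2 scale, for WDR77. In DMSO 8 myeloid markers, all above the filter on low counts, summed to 2037 to 2095 CPM after scaling (among them FLT3 697, LYZ 916 and CD33 65.9 CPM). The summed level of 3 markers each was 0 to 0.0330 CPM for T cells (CD3E and CD2 at 0). It was 0.226 to 0.428 CPM for erythroid cells and 0.327 to 0.474 CPM for fibroblasts. For epithelium it was 10.1 to 11.0 CPM, nearly all of it KRT18.

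Per length, PRMT1 was the highest of the 10 genes and PRMT9 the lowest. In DMSO the length-scaled levels (TPM, computed from transcript lengths) were 640, 611 and 617 for PRMT1 and 304, 289 and 293 for CLNS1A. PRMT5 followed at 119, 107 and 106 TPM, PRMT7 at 82.8, 72.7 and 77.5, and CARM1 at 61.2, 59.1 and 54.5. Then came PRMT2 (48.5, 50.6 and 55.2 TPM), WDR77 (56.7, 43.3 and 47.5), PRMT3 (40.6, 35.4 and 34.7), PRMT6 (32.5, 26.0 and 26.4) and PRMT9 (9.87, 8.93 and 10.3). CARM1 overlapped PRMT2, and PRMT2 overlapped WDR77. The other neighbours in this order did not overlap in DMSO. PRMT8, a type I enzyme known mainly from brain, was at 1.33 ± 0.0716 CPM (SD, n = 3) in DMSO.

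All 10 genes passed the filter on low counts, and none moved far: the highest group mean was between 1.10 times the lowest (CLNS1A) and 1.40 times (CARM1). A gene is called where its p, adjusted over 16640 genes (Benjamini-Hochberg), was below 0.05 by the quasi-likelihood test of edgeR, and every fold change below is a difference of log2 levels with its standard error (SE). With PRT220, 1 gene rose and 3 fell, where 13.8% of all genes rose and 11.1% fell. GSK-LSD1 also gave 1 higher and 3 lower, against 17.6% and 15.0% of all genes. PRT220+GSK-LSD1 gave 0 higher and 6 lower (24.4% and 22.1% of all genes), and MS023+GSK-LSD1 gave 1 higher and 7 lower (25.1% and 23.3%). MC4455 and MC4491 each gave 0 higher and 7 lower, where MC4455 raised 18.5% and lowered 19.2% of all genes and MC4491 raised 15.5% and lowered 15.2%. MS023 alone called none of the 10, where 0.889% of all genes rose and 1.36% fell. At an unadjusted p below 0.05 MS023 had 1 gene, PRMT9, and DESeq2 called 0. Of all genes, 2510 had an unadjusted p below 0.05 with MS023 and DESeq2 called 626. The median change of the 10 was -0.08 with PRT220, -0.09 with GSK-LSD1, -0.21 and -0.24 with the PRT220 and MS023 combinations, -0.24 with MC4455 and -0.22 with MC4491, and the median of all genes lay between -0.001 and 0.04 in these comparisons and in MS023. These comparisons share the DMSO libraries.

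**Figure D1:**
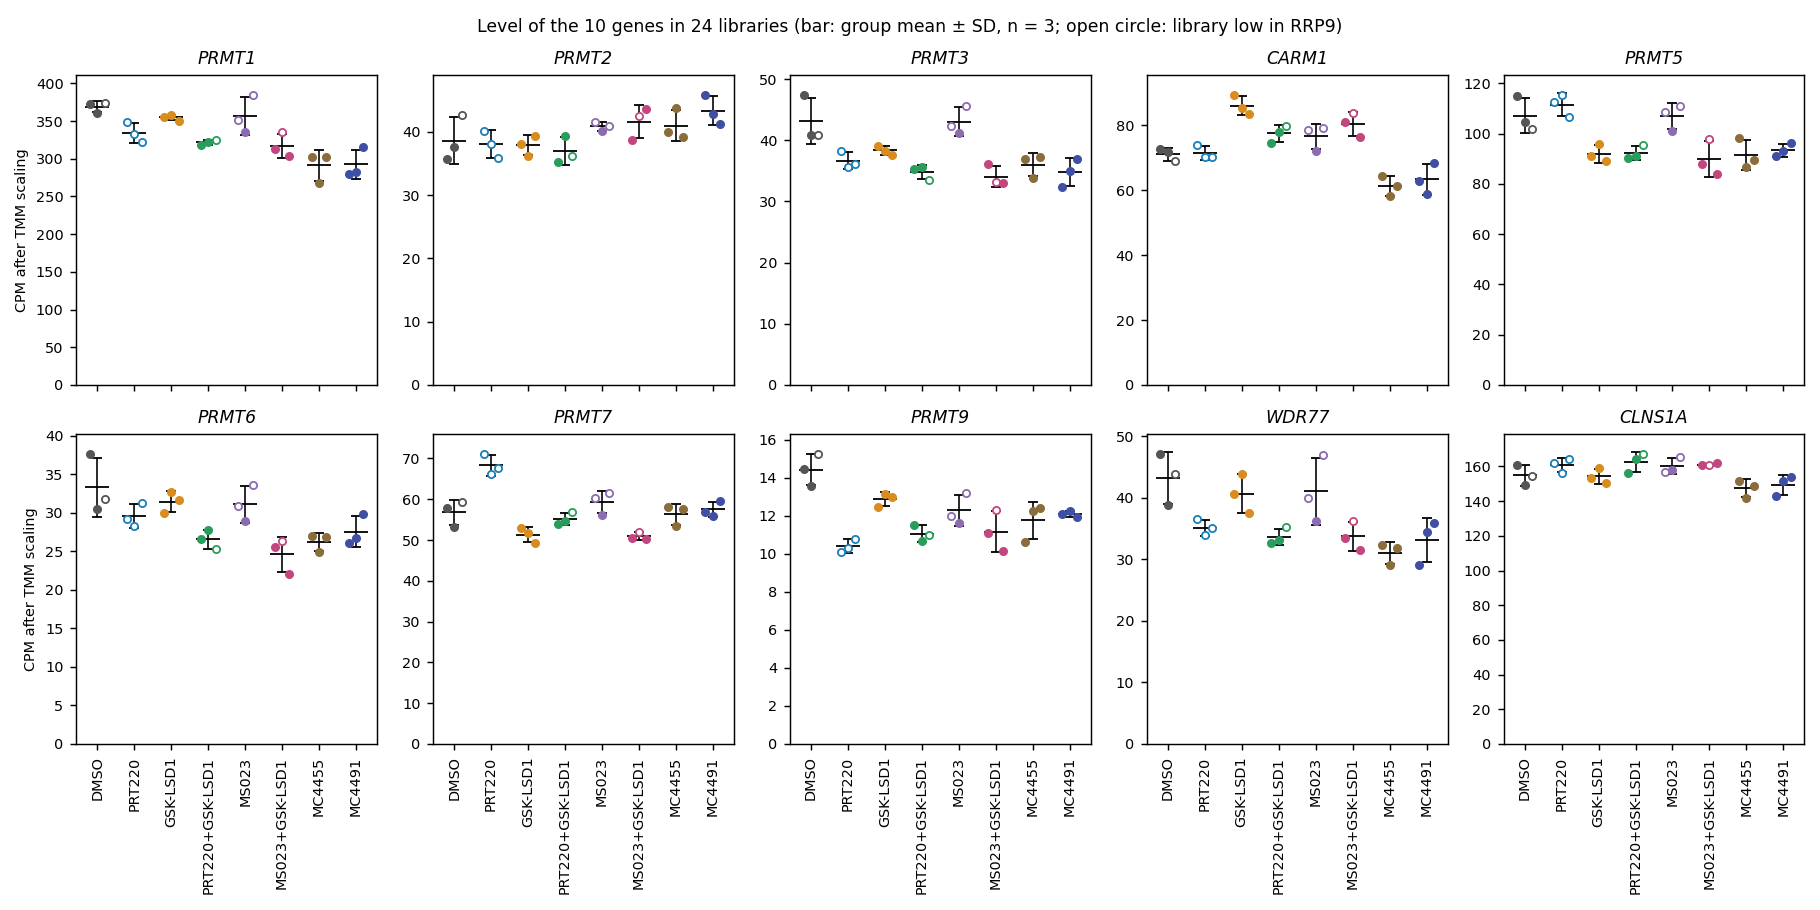
Level of each gene (CPM after TMM scaling, vertical axis from 0) in the 3 libraries of the 8 groups, with bars for the group mean ± SD and open circles for the low-RRP9 libraries. PRMT7 sits highest with PRT220 (66.2 to 71.1 CPM), CARM1 is highest with GSK-LSD1 (83.6 to 89.4 CPM) and lowest with MC4455 (58.1 to 64.5 CPM), and CLNS1A keeps within 142 to 167 CPM in all 24 libraries.

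PRMT5, the type II enzyme that PRT220 targets, was not called with PRT220 but fell in 5 of 7 treatments. Its levels were 115, 105 and 102 CPM in DMSO and 113, 115 and 107 CPM with PRT220, and the groups overlapped (log2 change 0.06, SE 0.06, 95% interval -0.06 to 0.18, edgeR adjusted p = 0.523). With GSK-LSD1 it was at 91.0, 95.8 and 89.1 CPM, below every DMSO library (log2 change -0.22, SE 0.06, edgeR adjusted p = 0.00572). The combinations gave 90.4, 90.9 and 95.7 CPM with PRT220+GSK-LSD1 (-0.21, SE 0.06) and 88.0, 97.7 and 84.0 CPM with MS023+GSK-LSD1 (-0.25, SE 0.06). MC4455 gave 98.3, 86.7 and 89.6 CPM (-0.23, SE 0.06) and MC4491 gave 91.1, 93.2 and 96.2 CPM (-0.20, SE 0.06). With MS023 it was at 108, 101 and 111 CPM, which overlapped DMSO. Within the low-RRP9 libraries, where 1 DMSO library is left, neither combination's fall was called (-0.12 and -0.09 on the log2 scale for PRT220+GSK-LSD1 and MS023+GSK-LSD1, adjusted p of 0.283 and 0.445, ranges over 14 alternatives 0.000356 to 0.283 and 4.73e-05 to 0.445), and without DMSO A the fall with MC4491 was not called (adjusted p = 0.0967, range over 13 alternatives 0.00303 to 0.0967).

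PRMT9, the second type II enzyme, which methylates the splicing factor SF3B2, fell most of the 10 with PRT220. It was at 14.5, 13.6 and 15.3 CPM in DMSO and at 10.1, 10.3 and 10.8 CPM with PRT220, a drop to 0.721 of the control (log2 change -0.47, SE 0.07, edgeR adjusted p = 5.79e-05). The groups did not overlap, and this call held under all 13 alternatives. One of these, the fit within the low-RRP9 libraries, has DMSO C as its lone control and assumes that it varies like the other groups. It also fell with PRT220+GSK-LSD1 (11.5, 10.7 and 11.0 CPM, -0.38), MS023+GSK-LSD1 (11.1, 12.3 and 10.2 CPM, -0.37), MC4455 (10.6, 12.2 and 12.4 CPM, -0.30) and MC4491 (12.1, 12.2 and 12 CPM, -0.25). GSK-LSD1 (12.5, 13.2 and 13 CPM) and MS023 (12, 11.6 and 13.2 CPM) lay below every DMSO library without passing the test, with adjusted p of 0.0894 and 0.106 in edgeR (range over 14 alternatives for MS023 0.0365 to 0.417). A fit with a split term called the MS023 fall (0.0365), and leaving out DMSO B that with GSK-LSD1 (0.0351, range over 13 alternatives 0.0351 to 0.274). Leaving out DMSO C ended the MC4491 call (adjusted p = 0.0506, range over 13 alternatives 0.00854 to 0.0614).

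WDR77, the WD-repeat protein that binds PRMT5 and presents its substrates, fell in 5 of 7 treatments. DMSO gave 47.1, 38.8 and 43.9 CPM and PRT220 gave 36.5, 33.9 and 35 CPM (-0.30, SE 0.09, edgeR adjusted p = 0.0203). With PRT220+GSK-LSD1 it was at 32.6, 33.1 and 35.2 CPM (-0.36), with MS023+GSK-LSD1 at 33.4, 36.2 and 31.6 CPM (-0.36), and with MC4491 at 29.1, 34.5 and 35.9 CPM (-0.38). MC4455 had the lowest group mean, with libraries at 32.3, 29 and 31.9 CPM, or 0.719 of DMSO (-0.48, SE 0.09, edgeR adjusted p = 0.000536). GSK-LSD1 (40.6, 43.8 and 37.5 CPM) and MS023 (39.9, 36.3 and 46.9 CPM) overlapped DMSO. The fall with PRT220 was the least settled: it was not called without DMSO A, PRT220 B or PRT220 C (adjusted p of 0.104, 0.0638 and 0.0541, range over 13 alternatives 0.00428 to 0.104).

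CLNS1A, the chaperone that delivers Sm proteins to the PRMT5 complex, was called in none of the 15 comparisons. DMSO held 161, 149 and 155 CPM, and its log2 changes against DMSO ran from -0.07 with MC4455 to 0.07 with PRT220+GSK-LSD1. With MC4455 the 95% interval was -0.15 to 0.01 and with PRT220+GSK-LSD1 it was -0.01 to 0.15. Without DMSO B the MC4455 change was called (adjusted p = 0.045, range over 13 alternatives 0.045 to 0.436). With PRT220, WDR77 fell while PRMT5 and CLNS1A were not called, and with MC4455 and MC4491 PRMT5 and WDR77 fell while CLNS1A was not called. The differences between these genes were not tested.

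PRMT7, the type III enzyme, rose with PRT220 and fell with GSK-LSD1. DMSO gave 57.8, 53.2 and 59.2 CPM, and PRT220 gave 71.1, 66.2 and 67.7 CPM, every library above the control (log2 change 0.27, SE 0.05, or 20.4% higher, edgeR adjusted p = 0.000281). GSK-LSD1 gave 52.8, 51.8 and 49.2 CPM (-0.15, SE 0.05, adjusted p = 0.0245) and MS023+GSK-LSD1 gave 50.5, 52.1 and 50.2 CPM (-0.16, SE 0.05, adjusted p = 0.0115), every library below the control. With PRT220+GSK-LSD1 it was back among the DMSO libraries, at 53.9, 54.7 and 56.8 CPM. MS023, MC4455 and MC4491 overlapped DMSO. All 3 PRT220 libraries are low in RRP9. Against DMSO C, the control library of that kind, the rise was 0.19 and not called (adjusted p = 0.0849, range over 13 alternatives 1.1e-05 to 0.0849). The GSK-LSD1 fall was not called without DMSO A, DMSO C or GSK-LSD1 C (adjusted p of 0.0801, 0.0666 and 0.12, range over 13 alternatives 0.00305 to 0.123), and the MS023+GSK-LSD1 fall was not called without DMSO C (0.066, range over 14 alternatives 0.00297 to 0.0932).

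**Figure D2:**
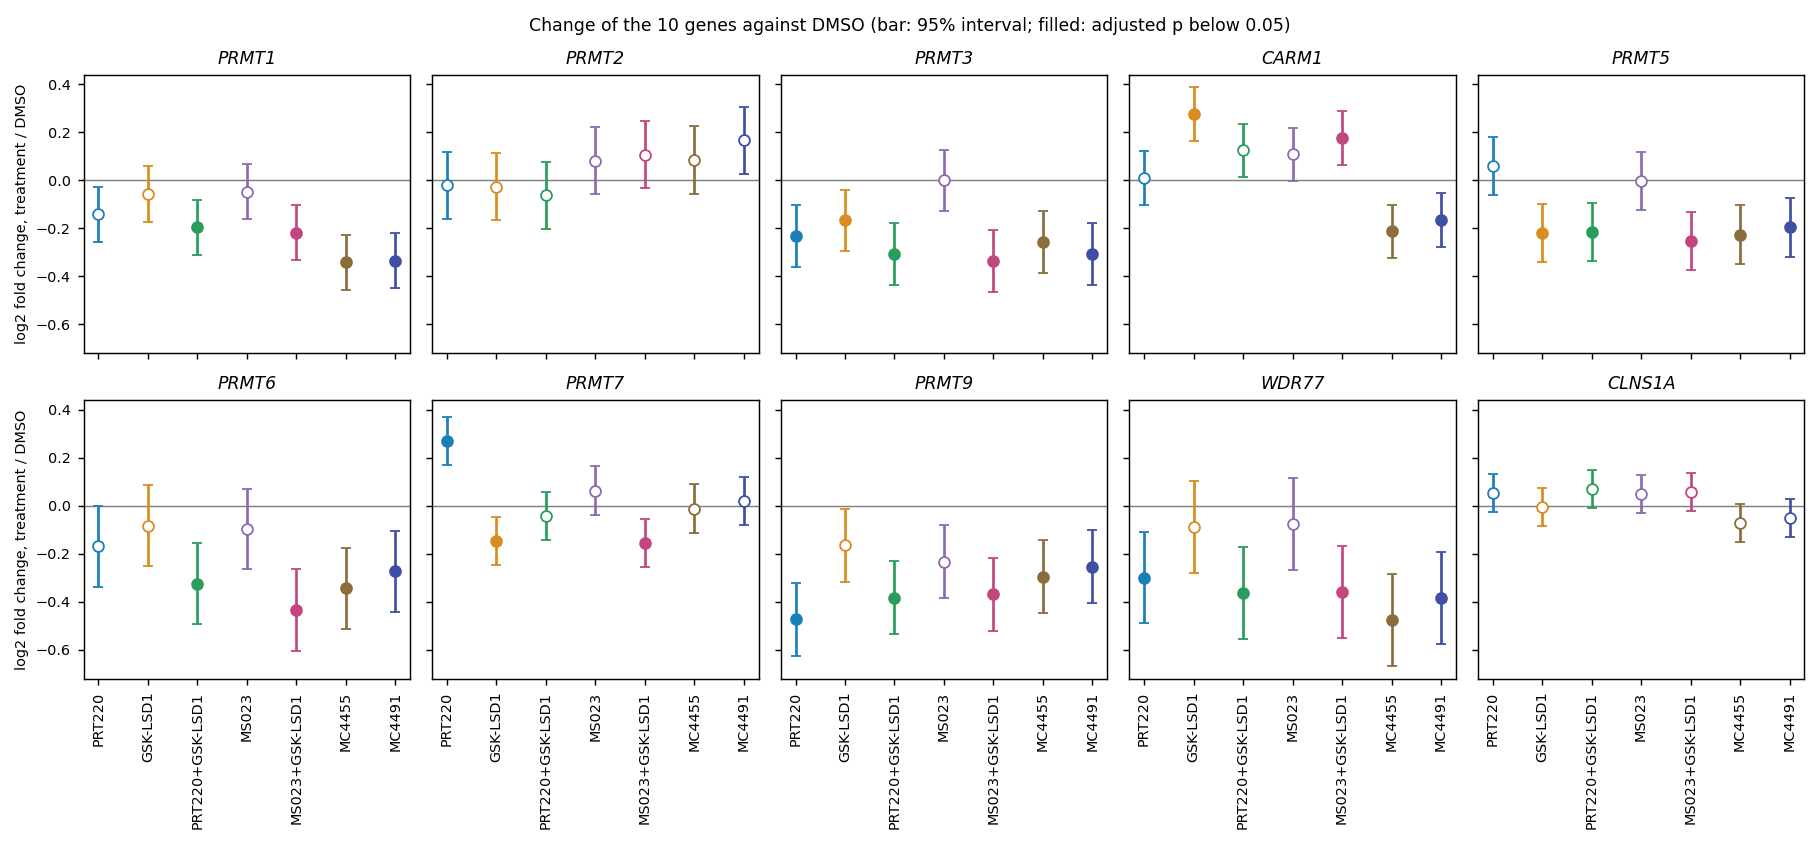
Log2 fold change of each gene against DMSO for the 7 treatments (points, with bars for the 95% interval of the edgeR fit), filled where the adjusted p was below 0.05. PRMT3 is called lower in every treatment but MS023, CARM1 rises with GSK-LSD1 (0.28) and falls with MC4455 (-0.21), and PRMT7 rises with PRT220 (0.27).

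Among the type I enzymes, PRMT1 makes most of the cell's asymmetric dimethylarginine, including that on histone H4. It was at 373, 361 and 374 CPM in DMSO and fell most with the code-named compounds, to 303, 268 and 303 CPM with MC4455 (-0.34, SE 0.06, edgeR adjusted p = 0.000112) and 280, 283 and 315 CPM with MC4491 (-0.34, SE 0.06, edgeR adjusted p = 0.000218). The combinations gave smaller falls, to 319, 322 and 326 CPM with PRT220+GSK-LSD1 (-0.20) and 313, 335 and 304 CPM with MS023+GSK-LSD1 (-0.22). With PRT220 alone PRMT1 was at 349, 333 and 322 CPM, below every DMSO library but not called (-0.14, SE 0.06, edgeR adjusted p = 0.0647). DESeq2 called it, as did RLE scaling, the fit with a split term, the fit of these groups alone, and the fit without PRT220 A (adjusted p of 0.0258, 0.04995, 0.0166, 0.0442 and 0.0335, range over 13 alternatives 0.0166 to 0.197). With MS023, which inhibits the PRMT1 enzyme, it was at 352, 335 and 385 CPM, which overlapped DMSO.

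PRMT3, a cytosolic enzyme that methylates the ribosomal protein RPS2, fell in 6 of 7 treatments. It was at 47.4, 40.9 and 40.9 CPM in DMSO, 38.2, 35.7 and 36.2 CPM with PRT220 (-0.23, SE 0.06, edgeR adjusted p = 0.0084), and 39.1, 38.3 and 37.6 CPM with GSK-LSD1 (-0.17, SE 0.06, edgeR adjusted p = 0.0422). The combinations were lower, at 35.3, 35.6 and 33.4 CPM for PRT220+GSK-LSD1 (-0.31) and 36.1, 33.2 and 32.9 CPM for MS023+GSK-LSD1 (-0.34). MC4455 (36.9, 33.9 and 37.2 CPM) and MC4491 (32.4, 34.9 and 36.9 CPM) fell by 0.26 and 0.31 on the log2 scale. MS023 left it at 42.3, 41.2 and 45.6 CPM, within the DMSO range. DMSO A was the highest library for this gene: without it the single-agent calls were lost (adjusted p = 0.0684 for PRT220, range over 13 alternatives 0.00177 to 0.188, and 0.266 for GSK-LSD1, range 0.0131 to 0.266), and the log2 change with GSK-LSD1 was -0.09 in place of -0.17. The GSK-LSD1 call was also lost without GSK-LSD1 B or C (0.0558 and 0.121).

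CARM1, also called PRMT4, is a coactivator that methylates histone H3 and acts with p300. It rose with GSK-LSD1 and fell with both code-named compounds. DMSO gave 72.6, 71.8 and 68.9 CPM and GSK-LSD1 gave 89.4, 85.3 and 83.6 CPM, 21.1% higher (log2 change 0.28, SE 0.05, edgeR adjusted p = 0.000366), a call that held under all 13 alternatives. With GSK-LSD1 17.6% of all genes rose and 15.0% fell. Of the 8 myeloid markers 4 rose with it (LYZ, CSF1R, CD33 and MEIS1) and 2 fell (FLT3 and MPO), with a median log2 change of 0.11. Their summed level rose as well, from 2037 to 2095 CPM in the DMSO libraries to 3509 to 3682 CPM with GSK-LSD1, mostly through LYZ. It was also higher with PRT220+GSK-LSD1 (3025 to 3224 CPM) and MS023+GSK-LSD1 (2925 to 3282 CPM). With PRT220 it was at 2202 to 2264 CPM and with MC4455 at 2125 to 2259 CPM, both above DMSO, where CARM1 did not rise. With MS023 (2010 to 2084 CPM) and MC4491 (2091 to 2197 CPM) it overlapped DMSO. The relation of this sum to CARM1 was not tested. MS023+GSK-LSD1 gave 80.9, 83.7 and 76.3 CPM (0.18, SE 0.05, adjusted p = 0.01), whereas PRT220+GSK-LSD1 gave 74.6, 78.1 and 79.8 CPM and was not called (0.12, SE 0.05, adjusted p = 0.0628). With MC4455 it was at 64.5, 58.1 and 61.3 CPM (-0.21, SE 0.05, adjusted p = 0.00406) and with MC4491 at 62.8, 58.8 and 68.4 CPM (-0.17, SE 0.05, adjusted p = 0.0236). The libraries of each stood below every DMSO library. The MC4491 call was lost without DMSO A, MC4491 A or MC4491 B (0.0786, 0.0505 and 0.134, range over 13 alternatives 0.00464 to 0.134). PRT220 and MS023 overlapped DMSO.

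PRMT6, a nuclear enzyme that methylates histone H3, fell in both combinations and with both code-named compounds. It was at 37.7, 30.5 and 31.8 CPM in DMSO and lowest with MS023+GSK-LSD1, at 25.5, 26.3 and 22.0 CPM (-0.43, SE 0.08, edgeR adjusted p = 0.000181). PRT220+GSK-LSD1 gave 26.6, 27.7 and 25.3 CPM (-0.32), MC4455 gave 27.0, 24.9 and 26.9 CPM (-0.34), and MC4491 gave 26.1, 26.8 and 29.9 CPM (-0.27). Each single agent overlapped DMSO. Leaving out DMSO A, MC4491 A or MC4491 B ended the MC4491 call (adjusted p of 0.116, 0.058 and 0.0554, range over 13 alternatives 0.00408 to 0.116). PRMT2, a weakly active type I enzyme with an SH3 domain, was called in none of the 15 comparisons: its highest group mean was 43.3 ± 2.32 CPM with MC4491 against 38.6 ± 3.64 CPM in DMSO (SD, n = 3), a log2 change of 0.17 (edgeR adjusted p = 0.0667). It was called there in the fit with a split term, among the libraries with normal RRP9, and without DMSO C (0.0397, 0.0265 and 0.0167, range over 13 alternatives 0.0167 to 0.319). With MS023+GSK-LSD1 (0.11) it was called without DMSO C (0.0369, range over 14 alternatives 0.0369 to 0.844).

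Within the low-RRP9 libraries, where each combination and DMSO keep 1 library and the spread comes from PRT220 and MS023, further calls against DMSO were not reached. These were PRMT3 and WDR77 with PRT220 (adjusted p of 0.188 and 0.0597), PRMT1 and WDR77 with PRT220+GSK-LSD1 (0.0913 and 0.0706), and PRMT1, PRMT6, PRMT7, PRMT9 and WDR77 with MS023+GSK-LSD1 (0.171, 0.0889, 0.0932, 0.0893 and 0.113). Among the other libraries the calls of CARM1 and PRMT7 with MS023+GSK-LSD1 (0.156 and 0.0618), PRMT7 with GSK-LSD1 (0.123) and PRMT9 with MC4491 (0.0614) were not reached. The directions stayed the same in all of these. In the fit of the compared groups alone, PRMT3 and PRMT7 with GSK-LSD1 (0.0557 and 0.0522) and CARM1 and PRMT6 with MC4491 (0.0793 and 0.068) missed the threshold.

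The combinations were set against their single agents to ask what the second drug added. Adding GSK-LSD1 to PRT220 lowered PRMT5 (-0.27, SE 0.06, adjusted p = 0.000906) and PRMT7 (-0.31, SE 0.05, adjusted p = 3.23e-05), 2 of 10 genes, where 38.2% of all genes were called by edgeR in either direction. The groups did not overlap for PRMT7, at 66.2 CPM or more with PRT220 and at 56.8 CPM or less with PRT220+GSK-LSD1. Both calls held under all 13 alternatives. Adding PRT220 to GSK-LSD1 gave 3 lower genes, PRMT6 (-0.24), PRMT9 (-0.22) and WDR77 (-0.27), where 15.3% of all genes were called in either direction. The 3 lay just under the threshold (edgeR adjusted p of 0.0479, 0.0488 and 0.0487). All 3 were lost with RLE scaling, without a filter and among the libraries with normal RRP9. None of the 3 was called without GSK-LSD1 A or B or without any 1 of the PRT220+GSK-LSD1 libraries, and WDR77 alone was called without GSK-LSD1 C (adjusted p of lost calls from 0.0562 to 0.23, ranges over 13 alternatives 0.0184 to 0.175 for PRMT6, 0.0138 to 0.171 for PRMT9 and 0.0132 to 0.23 for WDR77). PRMT1 (-0.14) and CARM1 (-0.15) were not called (edgeR adjusted p of 0.0973 and 0.061) but were called lower in 2 and 3 of 13 alternatives.

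Adding GSK-LSD1 to MS023 lowered 6 of 10 genes, where 40.0% of all genes were called in either direction. The labels give no dose or time for MS023 or MS023+GSK-LSD1. The contrasts of MS023+GSK-LSD1 with MS023 and with GSK-LSD1 may therefore also hold a difference in dose or time. The 6 were PRMT1 (-0.17), PRMT3 (-0.34), PRMT5 (-0.25), PRMT6 (-0.34), PRMT7 (-0.22) and WDR77 (-0.28). PRMT6 gave 30.9, 28.9 and 33.6 CPM with MS023 and no more than 26.3 CPM with the combination. The PRMT1 and WDR77 calls were lost without MS023 C, MS023+GSK-LSD1 A or MS023+GSK-LSD1 C (adjusted p from 0.0562 to 0.13 and from 0.0523 to 0.15, and up to 0.314 and 0.452 over their 14 alternatives). Within the low-RRP9 libraries, where MS023+GSK-LSD1 keeps library B alone, 3 of the 6 genes were called, and among the other libraries, where MS023 keeps B alone, 1 was. Both fits assume that the lone library varies like the other groups, and the share of all genes called in them was not taken. Adding MS023 to GSK-LSD1 called PRMT6 alone, lower (-0.35, SE 0.08, adjusted p = 0.0104), where 10.9% of all genes were called in either direction. That call was lost without GSK-LSD1 B or MS023+GSK-LSD1 C (0.0728 and 0.0779, range over 13 alternatives 0.00161 to 0.0779). PRMT1 (-0.16), WDR77 (-0.27) and PRMT9 (-0.20) came close to the threshold (edgeR adjusted p of 0.0657, 0.0646 and 0.0779). They were called lower in 4, 3 and 3 of 13 alternatives, and DESeq2 called PRMT1 and WDR77 (0.048 and 0.0399).

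The interaction of each pair (on the log2 scale, the change with the combination less the sum of the changes with each agent) called none of the 10 genes. For PRT220 with GSK-LSD1, 0.541% of all genes were called by edgeR. Of the 10, CARM1 (-0.16), PRMT7 (-0.16) and PRMT9 (0.25) had an unadjusted p below 0.05, and DESeq2 called 0. For MS023 with GSK-LSD1, edgeR called 0% of all genes and CARM1 (-0.21) and PRMT6 (-0.26) had an unadjusted p below 0.05, with 0 called by DESeq2. Across all genes 1673 and 1356 had an unadjusted p below 0.05, and DESeq2 called 198 and 19. Dose and time of MS023 and MS023+GSK-LSD1 are not in the labels, so the MS023 interaction may also hold a difference in these.

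PRT220 and MS023, which block the 2 main forms of arginine dimethylation, were also compared with each other. Of the 10 genes 1 was higher with PRT220 (PRMT7, 0.20, SE 0.05, adjusted p = 0.00329) and 2 were lower (PRMT3, -0.23, SE 0.06, adjusted p = 0.00873, and PRMT9, -0.24, SE 0.07, adjusted p = 0.0194), where 25.7% of all genes were called by edgeR. The PRMT7 call was lost without MS023 B and within the low-RRP9 libraries (0.16), and the PRMT9 call without PRT220 A or MS023 C and in the fit of both groups alone (adjusted p of 0.0555, 0.0636, 0.0554, 0.0942 and 0.0568, with ranges over 13 alternatives of 0.00145 to 0.0636 and 0.00537 to 0.0942). WDR77 (-0.22, adjusted p = 0.0793) was called lower by DESeq2, with a split term, within the low-RRP9 libraries and without MS023 B (0.0455, 0.027, 0.0276 and 0.0174, range over 13 alternatives 0.0174 to 0.362). The MS023 dose is unknown, so the doses cannot be matched.

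MC4455 and MC4491 differed in none of the 10 genes, and edgeR called 0% of all genes between them. None of the 10 had an unadjusted p below 0.05 and DESeq2 called 0. Of all genes 780 had an unadjusted p below 0.05 and DESeq2 called 18. The 95% intervals of the 10 differences lay between -0.29 and 0.18 on the log2 scale, which leaves room for differences of that size, and the labels do not say that doses or times were equal.

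Genes whose 8 group means followed those of PRMT5 most closely were NAA20 (Pearson r = 0.989), NDUFAF8 (0.983), NCDN (0.982), SUPT16H (0.980) and ST13 (0.980). NAA20 is a catalytic subunit of an N-terminal acetyltransferase, NDUFAF8 an assembly factor of respiratory complex I, NCDN a neurochondrin, SUPT16H a subunit of the histone chaperone FACT and ST13 a cochaperone of HSP70. These are the top 5 of 10431 protein-coding genes, of which 364 had r above 0.9, and r over 8 group means from shared libraries is a description only.

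Isoform usage was followed in the transcript table, where 94 of the 131 isoforms were tested with limma's diffSplice, each against the other isoforms of its gene. PRMT6 had no tested isoform. PRT220 called 6 isoforms of the 10 genes, where 4.17% of all 74379 transcripts were called, and PRT220+GSK-LSD1 called 5 against 4.76%. The other treatments called 3 (GSK-LSD1, 1.01% of all), 1 (MS023+GSK-LSD1, 2.79%), 3 (MC4455, 3.29%), 1 (MC4491, 2.68%) and 0 (MS023, 0.756%). For MS023, 14 isoforms had an unadjusted p below 0.05 and edgeR's diffSpliceDGE called 0. The first of these counts was 16 with PRT220 and 19 with GSK-LSD1, and it was not taken over all transcripts. Isoform counts are estimates from reads that isoforms share, and the error of that assignment is not in the files.

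PRMT1 shifted away from 1 exon with PRT220. Its second exon, known to hold a nuclear export signal, is kept in the isoform PRMT1-202 and skipped in PRMT1-201. The exon lies on chromosome 19 (GRCh38, chr19:49679872-49679925, plus strand), has 54 bases, or 18 codons, and keeps the reading frame. The exon is shown in capitals between 18 bases of each flanking exon, followed by the junction that joins those exons without it (GENCODE 29):
PRMT1 with exon 2: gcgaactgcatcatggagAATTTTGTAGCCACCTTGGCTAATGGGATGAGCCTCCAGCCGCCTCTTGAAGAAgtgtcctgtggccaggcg
PRMT1 without exon 2: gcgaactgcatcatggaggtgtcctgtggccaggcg

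The isoforms with this exon made up 19.4%, 16.6% and 23.6% of the informative PRMT1 reads in DMSO and 13%, 11.2% and 12.4% with PRT220. With PRT220+GSK-LSD1 they made up 12.3%, 14.4% and 13.3%. All 6 libraries that received PRT220 lay below all 3 DMSO libraries. PRMT1-202 fell from 18.9% ± 3.41 to 11.6% ± 0.912 of the gene with PRT220 (SD, n = 3, log2 change against the other isoforms -0.75, SE 0.11, limma adjusted p = 2.01e-08) and to 12.7% ± 1.02 with PRT220+GSK-LSD1 (-0.61, SE 0.11, limma adjusted p = 1.99e-05). PRMT1-201 rose from 74.3% to 82.0% and 80.9%. The exon was at 16.7%, 15.9% and 19.7% with GSK-LSD1, 16.3%, 19.2% and 12.4% with MS023, and 15.4%, 23.9% and 12.3% with MC4491, each overlapping DMSO, and neither isoform was called in those groups. The PRT220 fall of PRMT1-202 held under all 10 alternatives, and its fall with PRT220+GSK-LSD1 missed the threshold with diffSpliceDGE (0.0563, range over 11 alternatives 5.93e-07 to 0.0563). All 3 PRT220 libraries are low in RRP9, and for no isoform was a fit within the low-RRP9 libraries among the alternatives. DMSO C, the control of that kind, had the exon at 23.6%. The rise of the dominant PRMT1-201 was not called by diffSpliceDGE with PRT220 or PRT220+GSK-LSD1 (0.756 and 0.748). That tool sets an isoform against its whole gene, itself included. Whether the exon's use differed between PRT220 and PRT220+GSK-LSD1 was not tested.

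**Figure D3:**
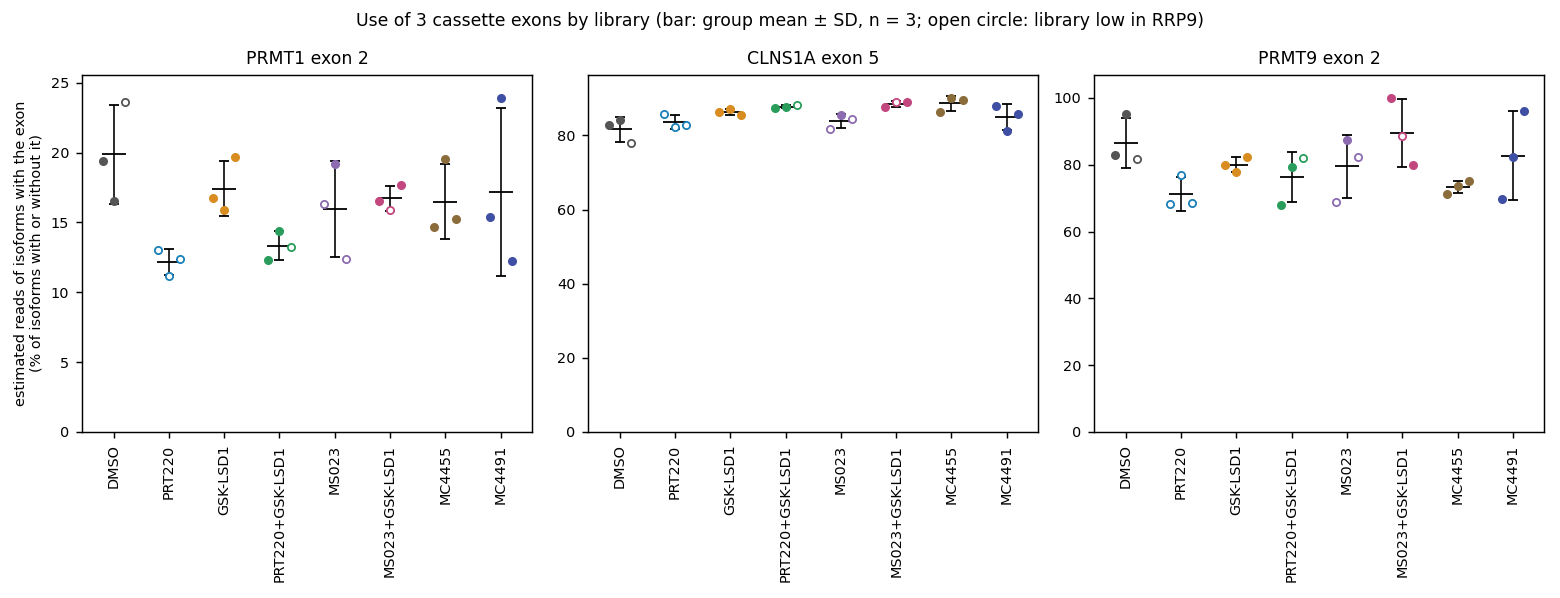
Estimated reads of isoforms that contain the named exon, as a percentage of the reads of isoforms with or without it, for PRMT1 exon 2, CLNS1A exon 5 and PRMT9 exon 2, by library, with bars for the mean ± SD of 3 and open circles for the low-RRP9 libraries. PRMT1 exon 2 is at 11.2 to 14.4% in the 6 libraries that received PRT220 and at 16.6 to 23.6% in DMSO.

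CLNS1A was called for isoform use in treatments where its gene level was not called. CLNS1A-202 skips an exon of 174 bases, 58 codons, on chromosome 11 (GRCh38, chr11:77622500-77622673, minus strand), and the frame is kept. Its sequence is shown with the junction made without it, with capitals for the exon as above:
CLNS1A with exon 5: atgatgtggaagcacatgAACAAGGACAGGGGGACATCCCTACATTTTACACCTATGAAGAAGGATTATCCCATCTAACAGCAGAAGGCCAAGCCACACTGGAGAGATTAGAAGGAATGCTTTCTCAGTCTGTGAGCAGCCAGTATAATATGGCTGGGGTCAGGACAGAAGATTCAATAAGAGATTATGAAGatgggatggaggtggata
CLNS1A without exon 5: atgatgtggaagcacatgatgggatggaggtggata

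CLNS1A-202 made up 16.6%, 14.8% and 21.3% of the gene in DMSO, 11.6%, 10.4% and 10.1% with MS023+GSK-LSD1 and 13%, 9.08% and 9.72% with MC4455. The treated libraries lay below all DMSO libraries (log2 change against the other isoforms -0.82, SE 0.23, limma adjusted p = 0.0259, and -0.85, SE 0.24, limma adjusted p = 0.0215). PRT220+GSK-LSD1 gave 11.7%, 11.8% and 11.2%, also below DMSO, and was not called (limma adjusted p = 0.0622). GSK-LSD1 gave 12.9%, 12.1% and 14.1%, below DMSO as well and not called. DMSO C, a low-RRP9 library, was the highest control: without it neither call held (adjusted p = 0.248 and 0.222, ranges over 11 alternatives 0.0129 to 0.361 and 0.0165 to 0.226). The MS023+GSK-LSD1 call was also lost without DMSO A or any 1 of its own libraries, and the MC4455 call without MC4455 B or C (adjusted p from 0.0626 to 0.179).

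PRMT9 had a shift in share that did not pass the test. Its isoform PRMT9-204 is annotated as a target of nonsense-mediated decay, the pathway that destroys mRNAs with an early stop codon. It lacks exon 2, which has 149 bases and breaks the frame when skipped (GRCh38, chr4:147680323-147680471, minus strand). The exon and the junction without it are:
PRMT9 with exon 2: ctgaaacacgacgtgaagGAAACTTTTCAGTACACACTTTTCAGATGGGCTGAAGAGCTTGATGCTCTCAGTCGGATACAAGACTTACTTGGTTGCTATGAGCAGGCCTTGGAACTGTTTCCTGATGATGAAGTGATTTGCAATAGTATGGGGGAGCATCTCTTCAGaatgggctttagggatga
PRMT9 without exon 2: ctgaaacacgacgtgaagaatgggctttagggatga

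PRMT9-204 was at 17.2%, 4.67% and 18.1% of the gene in DMSO and at 31.9%, 23% and 28.2% with PRT220, without overlap (limma adjusted p = 0.144). MC4455 gave 25.1%, 23.7% and 23%, also above every DMSO library and not called (0.256). Libraries of other groups ranged from 0 (MS023+GSK-LSD1 A) to 32.0% (PRT220+GSK-LSD1 A), and replicates of a group spread widely at this low level. Exon 2 was kept in 82.8%, 95.3% and 81.8% of informative reads in DMSO and 68.1%, 77.0% and 68.6% with PRT220. This stands beside the fall of the gene from 14.4 to 10.4 CPM with PRT220, and the relation of these values was not tested.

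WDR77-201, the protein-coding isoform of WDR77, was at 86.3%, 89.6% and 89.7% in DMSO, 94.3%, 97.0% and 95.4% with PRT220+GSK-LSD1 (log2 change against the other isoforms 1.45, SE 0.35, limma adjusted p = 0.00418) and 93.6%, 95.8% and 93.2% with MC4491 (1.15, SE 0.34, limma adjusted p = 0.0434). In the other 5 treatments too every library lay above the DMSO libraries, from 89.95% (MS023 C) to 96.1% (PRT220 A), without a call. All these comparisons share the DMSO libraries, and MS023 C stood just above the highest of them (DMSO C, 89.70%). Short isoforms without a coding sequence fell: WDR77-204 from 5.02% to 1.46% with PRT220 (limma adjusted p = 0.0192; it was at 1.39% with MC4491, not called), and WDR77-203 from 5.67% to 2.22% with GSK-LSD1 (0.0439) and 1.77% with PRT220+GSK-LSD1 (0.0296). The WDR77-201 call with PRT220+GSK-LSD1 was lost without PRT220+GSK-LSD1 B, among the libraries with normal RRP9 and with diffSpliceDGE (0.0815, 0.0877 and 0.851, range over 11 alternatives 0.00163 to 0.851), which gave a log2 change of 0.11 for it and of 0.09 for MC4491 (adjusted p = 0.976). The MC4491 call of WDR77-201 and the WDR77-203 call with GSK-LSD1 were lost without any 1 of the 6 libraries compared (adjusted p from 0.0548 to 0.34 and from 0.0549 to 0.625, ranges over 11 alternatives 0.0332 to 0.976 and 0.0276 to 0.682). The WDR77-204 call was lost without DMSO C or any PRT220 library (0.0708 to 0.136, range over 10 alternatives 0.00235 to 0.136), and WDR77-203 with PRT220+GSK-LSD1 without DMSO A, DMSO B or any PRT220+GSK-LSD1 library (0.0676 to 0.222, range over 11 alternatives 0.0131 to 0.272).

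PRMT2, not called as a gene, shifted in isoform use with PRT220. PRMT2-206, a coding isoform, was at 19.5%, 13.7% and 20.4% in DMSO and 32.5%, 29.8% and 26.4% with PRT220, every library above the control (log2 change against the other isoforms 1.03, SE 0.27, limma adjusted p = 0.0102). It was not called by diffSpliceDGE or without DMSO B, PRT220 A or PRT220 B (0.246, 0.215, 0.108 and 0.0504, range over 10 alternatives 0.0103 to 0.246). The main PRMT5 isoform, PRMT5-202, kept 83.0% to 90.9% of the gene in all 24 libraries and was called in no treatment. CARM1-202 and CARM1-201, at 73.9% and 20.8% of CARM1 in DMSO, were not called either. The other calls concern isoforms of low share: PRMT1-217 (PRT220, PRT220+GSK-LSD1 and MC4455), PRMT5-217 (PRT220), PRMT5-213 (GSK-LSD1, 4.78% to 2.24%), CLNS1A-205 (GSK-LSD1) and PRMT7-209 (MC4455).

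The rest of the pathway was followed in 49 genes in 6 lists, all of which were tested: other methyltransferases, partners of PRMT5 and PRMT1, enzymes that supply or remove S-adenosylmethionine and methylthioadenosine, readers of methylarginine, enzymes acting on arginine or free methylarginine, and known substrates. PRT220 raised 4 and lowered 8 of them, GSK-LSD1 raised 2 and lowered 11, PRT220+GSK-LSD1 raised 3 and lowered 21, MS023+GSK-LSD1 raised 6 and lowered 22, MC4455 raised 1 and lowered 24, and MC4491 raised 1 and lowered 22. Of all genes, PRT220 raised 13.8% and lowered 11.1%, GSK-LSD1 raised 17.6% and lowered 15.0%, and PRT220+GSK-LSD1 raised 24.4% and lowered 22.1%. MS023+GSK-LSD1 raised 25.1% and lowered 23.3% of all genes, MC4455 raised 18.5% and lowered 19.2%, and MC4491 raised 15.5% and lowered 15.2%. MS023 called 0 of 49 in edgeR, with 9 at an unadjusted p below 0.05 and 2 in DESeq2. The median change of the 49 was -0.06 with PRT220, -0.08 with GSK-LSD1, -0.14 and -0.15 with the PRT220 and MS023 combinations, -0.17 with MC4455 and -0.13 with MC4491.

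**Figure D4:**
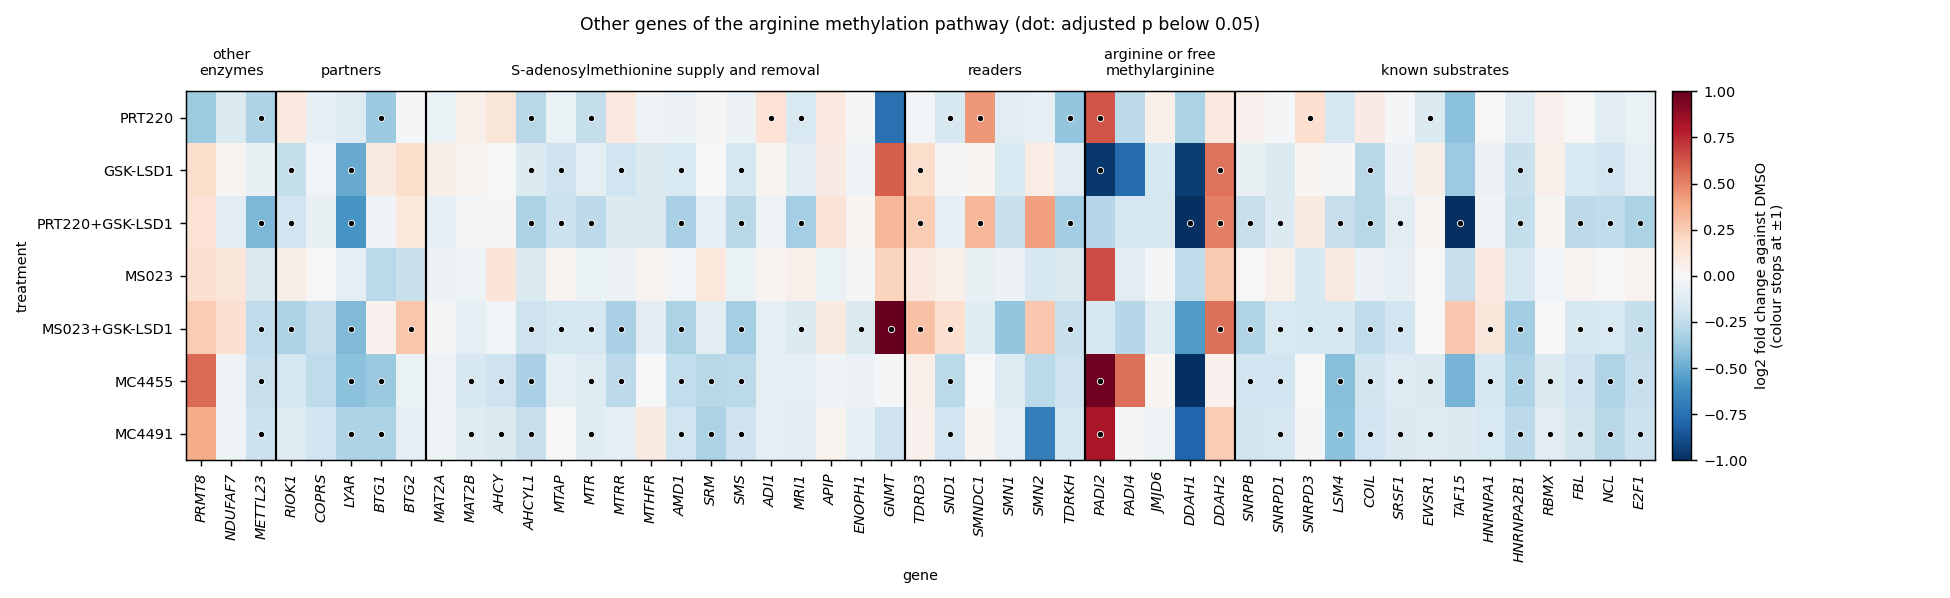
Log2 fold change against DMSO (colour, stopping at ±1) of 49 other genes of the pathway (columns, in 6 lists) in 7 treatments (rows), with a dot where edgeR's adjusted p was below 0.05. MS023 has no dot, and MC4455 and MC4491 have 25 and 23, of which 12 and 11 are among the 14 known substrates. Of all genes, MC4455 raised 18.5% and lowered 19.2%, and MC4491 raised 15.5% and lowered 15.2%.

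Known substrates include Sm proteins and RNA-binding proteins. Levels of these and the other pathway genes are means of 3 libraries unless each library is given. Of these 14 genes PRT220 raised 1 (SNRPD3, 147 to 165 CPM) and lowered 1 (EWSR1, 314 to 284 CPM), where 13.8% of all genes rose and 11.1% fell. PRT220+GSK-LSD1 lowered 10, led by TAF15 (35.5, 27.9 and 19.1 CPM in DMSO, 12.5, 0.790 and 7.78 CPM with PRT220+GSK-LSD1, log2 change -1.95, SE 0.73), E2F1 (69.6 to 55.9 CPM) and COIL (38.2 to 31.5 CPM). MS023+GSK-LSD1 raised HNRNPA1 and lowered 10, led by HNRNPA2B1 (890 to 698 CPM), SNRPB (225 to 182 CPM) and COIL (38.2 to 32.1 CPM). With MC4455, LSM4 (88.6 to 65.9 CPM), HNRNPA2B1 (890 to 717 CPM) and NCL (741 to 603 CPM) led 12 lower genes, and with MC4491 the same 3 led 11, LSM4 at 66.6, NCL at 612 and HNRNPA2B1 at 740 CPM. GSK-LSD1 lowered 3, COIL (38.2 to 31.6 CPM), HNRNPA2B1 (890 to 763 CPM) and NCL (741 to 648 CPM). Of all genes, 22.1% fell with PRT220+GSK-LSD1, 19.2% with MC4455, 15.2% with MC4491 and 15.0% with GSK-LSD1. With MS023+GSK-LSD1, 25.1% of all genes rose and 23.3% fell. EWSR1 and TAF15 are RNA-binding proteins, SNRPB, SNRPD3 and LSM4 are Sm or Sm-like proteins that PRMT5 methylates, COIL is the scaffold of Cajal bodies and NCL is nucleolin.

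Of 16 enzymes around S-adenosylmethionine, 1 rose and 3 fell with PRT220, where 13.8% of all genes rose and 11.1% fell. With GSK-LSD1 5 fell, with PRT220+GSK-LSD1 6, with MC4455 8 and with MC4491 7. The shares of all genes that fell in these were 15.0%, 22.1%, 19.2% and 15.2%. With MS023+GSK-LSD1 1 rose (GNMT) and 8 fell, where 25.1% of all genes rose and 23.3% fell. AHCYL1, a relative of the hydrolase that clears S-adenosylhomocysteine, fell in 6 of 7 treatments, from 160 CPM in DMSO to 132 with PRT220 and 128 with MC4455. MTR, methionine synthase, fell in 5, to 126 CPM from 148 with PRT220. AMD1, which decarboxylates S-adenosylmethionine for polyamine synthesis, and SMS, spermine synthase, fell in 5 treatments each, but not with PRT220 (AMD1 from 235 CPM to 211 with GSK-LSD1). MTAP, which clears methylthioadenosine, an inhibitor of PRMT5, was expressed at 112 CPM in DMSO and fell with GSK-LSD1 and both combinations, to 97.2, 96.9 and 99.3 CPM. MAT2A, which makes S-adenosylmethionine, was called in no treatment. ADI1 rose with PRT220 (111 to 123 CPM), and MRI1, like ADI1 an enzyme of methionine salvage, fell with it (70.6 to 63.5 CPM).

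Of 5 partners, none rose except BTG2 with MS023+GSK-LSD1 (38.2 to 46.3 CPM), where 25.1% of all genes rose. PRT220 lowered 1 of the 5, MS023 0, and each other treatment 2. Of all genes, 11.1% fell with PRT220, 15.0% with GSK-LSD1 and 22.1% with PRT220+GSK-LSD1. The shares were 23.3% with MS023+GSK-LSD1, 19.2% with MC4455, 15.2% with MC4491 and 1.36% with MS023. LYAR, a nucleolar protein, fell in 5 treatments, from 21.3 CPM in DMSO to 14.1 with PRT220+GSK-LSD1 and 15.0 with GSK-LSD1. RIOK1, which competes with CLNS1A for PRMT5, fell with GSK-LSD1 (27.5 to 23.3 CPM) and both combinations. BTG1, a cofactor of PRMT1, fell with PRT220 (122 to 94.3 CPM), MC4455 (94.6 CPM) and MC4491 (98.2 CPM). METTL23, an arginine methyltransferase of another fold, fell in 5 treatments, from 26.3 CPM to 21.3 with PRT220 and 19.2 with PRT220+GSK-LSD1. PRMT8 and NDUFAF7, listed with METTL23, were called in no treatment. COPRS, which links PRMT5 to histones, was called in no treatment.

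Of 6 readers of methylarginine, 1 rose and 2 fell with PRT220, where 13.8% of all genes rose and 11.1% fell. SMNDC1, a splicing factor with a Tudor domain, rose with PRT220 (61.1 to 82.4 CPM, log2 change 0.43, SE 0.06) and PRT220+GSK-LSD1 (76.8 CPM), while TDRKH fell with each of them and with MS023+GSK-LSD1 (10.6 CPM in DMSO, 8.08 with PRT220). TDRD3, a reader of asymmetric marks, rose in the 3 groups that received GSK-LSD1, from 26.5 CPM to 29.9, 31.6 and 32.5. SND1 fell with PRT220, MC4455 and MC4491 (381 CPM in DMSO, 317 with MC4455) and rose with MS023+GSK-LSD1 (428 CPM). SMN1 and SMN2, near-identical copies whose reads cannot be split with certainty, were called in no treatment.

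PADI2, which converts arginine to citrulline, was low in all groups and moved in opposite directions: 1.40 CPM in DMSO, 2.15 with PRT220, 2.73 with MC4455 and 2.45 with MC4491, all higher, and 0.712 with GSK-LSD1, lower. DDAH2, of the family that clears free methylarginine, rose in the 3 groups that received GSK-LSD1 (6.27 CPM in DMSO, 9.16, 8.90 and 9.17). DDAH1 was below 0.5 CPM in DMSO and was lower with PRT220+GSK-LSD1. JMJD6, an iron-dependent oxygenase, was called in no treatment. The lists were not compared with each other.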

How the data were processed

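RNA of 24 MV4-11 libraries was sequenced by the study as unstranded poly(A)-selected libraries with reads of 101 bases, per the labels' protocols. The authors deposited estimated counts per gene and per transcript (the unit was read from the values). The submitters' processing notes name GRCh38, DESeq2 1.28.1, R 4.0.0, STAR 2.7.3a and Salmon 1.2.1 without saying what each was used for. Totals of 32495446 to 61090593 counts limit precision at low genes. The 10 genes and all gene lists were chosen with earlier results of these data known, and 1 gene of the substrate list and the B cell markers are not reported here.

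Estimated counts were rounded. Gene tests used edgeR 4.0.16 in R 4.3.3 (quasi-likelihood, TMM scaling, filterByExpr, all 24 libraries, 8 group coefficients), with Benjamini-Hochberg adjustment over 16640 genes and a threshold of 0.05. TPM were computed from annotated lengths. Isoform usage used diffSplice after voom in limma 3.58.1, over 74379 transcripts that belong to 11427 genes, with names, exons and sequences from GENCODE 29, which paired 167008 of 178398 transcripts. Exon use is the estimated reads of isoforms with the exon over those with or without it. Named are all 10 genes, their called isoforms of at least 5% share, the 5 genes most like PRMT5, and the pathway genes called or at issue in the lists, some chosen after their values were seen. Alternatives for gene tests were DESeq2 1.42.0, RLE scaling, no filter, a replicate block, a term for the low-RRP9 libraries, each library kind alone and the compared groups alone. For isoforms they were diffSpliceDGE, another filter on low counts, the replicate block, the term for the low-RRP9 libraries and the libraries with normal RRP9 alone. Leaving out each library was tried for both. The scripts were tested on simulated data. No 2 libraries held identical values.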

Additional observations from a re-analysis of the deposited data

How the results depend on the processing

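No call of the 10 genes and none of the 12 isoform calls tried changed direction, while some uncalled results near 0 changed sign. Of 51 calls of the 10 genes, 20 were kept under every alternative, and 91 of 683 alternatives lost a call. Of 99 uncalled results, 16 gained a call somewhere, 35 times in all. Of 19 isoform calls, the 12 of isoforms with at least 5% share were tried under the alternatives and the other 7 were not. Of the 12, 1 was kept under every alternative (PRMT1-202 with PRT220), and 49 of 128 alternatives lost a call. None of these was a fit within the low-RRP9 libraries. The causes were not tested, except that the fits within a library kind and of the compared groups alone use fewer libraries.

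Counts that moved by over 1.5 times were these. Except for DESeq2 on genes, the share of all genes or transcripts called was not taken, here or on leaving out a library. Whether a changed count is particular to these genes was therefore not tested. With DESeq2, 2 pathway genes were called for MS023 and 3 of the 10 genes for MS023+GSK-LSD1 against GSK-LSD1. Of all genes, DESeq2 called 626 and 2182 in these comparisons and edgeR 375 and 1808. For PRT220+GSK-LSD1 against GSK-LSD1, RLE scaling, no filter, the replicate block and the normal-RRP9 libraries each gave 0 of the 10 genes, and the term for the low-RRP9 libraries gave 5. That term also gave 1 of the 10 genes and 1 pathway gene for MS023, 4 genes for MS023+GSK-LSD1 against GSK-LSD1 and 2 isoforms for MS023+GSK-LSD1. The low-RRP9 libraries alone gave 1 gene and 5 pathway genes for PRT220, 3 and 12 for PRT220+GSK-LSD1, 2 and 5 for MS023+GSK-LSD1, and 3 genes for MS023+GSK-LSD1 against MS023. The other libraries alone gave 1 gene for MS023+GSK-LSD1 against MS023, 4 for MS023+GSK-LSD1 against GSK-LSD1, and 3, 0 and 0 isoforms for PRT220+GSK-LSD1, MS023+GSK-LSD1 and MC4491. The compared groups alone gave 2 genes for GSK-LSD1, 11 pathway genes for MC4491 and 2 genes for MS023+GSK-LSD1 against GSK-LSD1. diffSpliceDGE called 2 isoforms for PRT220, 1 for GSK-LSD1, 0 for PRT220+GSK-LSD1 and 2 for MS023+GSK-LSD1.

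Leaving out 1 library gave from 2 to 5 of the 10 genes for PRT220 (2 without DMSO A), 2 to 5 for GSK-LSD1 (2 without DMSO A or GSK-LSD1 C), 4 to 7 for MC4491 (4 without DMSO A), 0 to 1 for PRT220+GSK-LSD1 against GSK-LSD1, 0 to 2 for MS023+GSK-LSD1 against GSK-LSD1 (0 without GSK-LSD1 B or MS023+GSK-LSD1 C) and 2 to 5 for PRT220 against MS023 (5 without MS023 B). Pathway genes ranged from 7 to 15 for GSK-LSD1 (8 without DMSO A, 7 without GSK-LSD1 C), 0 to 2 for MS023 (2 without DMSO A) and 14 to 21 for MC4491 (15 without DMSO A, 14 without MC4491 A). Isoforms ranged from 3 to 6 for PRT220 (3 without PRT220 A or B), 0 to 2 for GSK-LSD1, 2 to 5 for PRT220+GSK-LSD1 (2 without PRT220+GSK-LSD1 B), 0 to 2 for MS023, 0 to 2 for MS023+GSK-LSD1, 0 to 3 for MC4455 (0 without MC4455 B) and 0 to 2 for MC4491.

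Groups share the replicate letters A, B and C, but same-letter libraries did not all deviate together (median correlation 0.004, over 0.1 in 5 of 84 pairs, against -0.003 and 16 of 168 for other letters). All 5 were among the 21 pairs with DMSO, whose median was 0.054. With the replicate block the isoform count for GSK-LSD1 was 1, WDR77-203 with GSK-LSD1 and WDR77-201 with MC4491 were not called (adjusted p of 0.0566 and 0.0533), and the 3 calls of PRT220+GSK-LSD1 against GSK-LSD1 were lost.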
